A study of Rattus norvegicus with 90 samples.

Results

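The comparison described here set livers of rats given the high dose of thioacetamide directly against livers of rats given the low dose, 8 h after the injection, with no vehicle sample in the test. Its members were chosen by the labelled tissue, duration and dose, and they are 10 of the 90 libraries of the study, 5 per dose. The animals were male Sprague-Dawley rats, 10 weeks old when purchased, that carried a jugular vein catheter and had water but no food from the injection onwards. The low-dose group received 25 mg/kg and the high-dose group 100 mg/kg, each as 1 intraperitoneal injection, and a vehicle group of 5 rats received saline. Poly-A RNA of liver pieces was sequenced, so each value is an average over all cells of the piece, and in such bulk samples fewer cells of a type and less RNA per cell cannot be told apart. Liver at 24 h, with the same doses in other rats, served as a second look at the same contrast. By the study's description, the 24 h rats were dosed in the late afternoon instead of the morning and had food until the last hours, so elapsed time, feeding and hour of dosing cannot be told apart in any comparison of the 2 times.

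Thioacetamide is a liver toxicant that is harmless until it is oxidised. Cytochrome P450 and flavin-containing monooxygenases convert it to an S-oxide and then to a reactive S,S-dioxide, which binds to proteins and lipids. The cells around the central vein of the lobule carry most of this enzyme activity, and injury is known to start there. A direct contrast of the doses asks which transcripts separate a dose chosen to cause little or no injury from a dose chosen to cause injury, at an early time.

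The files name transcripts by Ensembl identifier and do not pair these with genes, and no entry of the rat gene table at hand carried such an identifier. The transcripts are therefore described by level, direction, position relative to vehicle, organ and time, with no statement on the genes or pathways behind them, and the labelled tissue could not be checked against marker genes. It was compared with the other organs instead. Across the transcripts tested, the Spearman correlation of log2(TPM + 1) of the 10 libraries with the 8 h vehicle livers was 0.875 to 0.946, against 0.668 to 0.718 with vehicle kidneys and 0.565 to 0.596 with vehicle hearts. All 10 libraries thus stood closest to liver.

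One library of the low-dose group calls for care. The library numbered 9, labelled liver at 8 h after the low dose, and the library numbered 1, labelled liver at 24 h after vehicle, hold the same data: 99.96% of the 15797 transcripts compared lay within 1 estimated count of each other, whereas the next most similar of the 4005 library pairs of the series reached 3.82%. Library 1 took no part in the contrast, so no sample was counted more than once, but at least 1 of the 2 labels must be wrong. Its correlation with the low-dose libraries (mean Spearman 0.966) was above that with the 8 h vehicle libraries (0.918) and with the other 24 h vehicle libraries (0.914). With the high-dose libraries it was 0.960, more than for any other low-dose library (0.948 to 0.952). The 24 h livers given thioacetamide were not compared in this way. The main counts below are also given without library 9.

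Total estimated counts ran from 16641408 to 36303248 per high-dose library and from 17747394 to 31807591 per low-dose library (exact permutation test, two-sided, p = 0.913). Between 4.45% and 28.9% of the counts fell on genomic intervals instead of annotated transcripts, with 28.9% in high-dose library 14, 26.4% in low-dose library 15 and 18.6% in low-dose library 18, and the groups did not differ in this share beyond their spread (exact permutation test, p = 0.690, with 0.00794 the smallest p that 5 against 5 allows). The 100 most abundant transcripts took 50.05% ± 1.22 of transcript counts in the high-dose livers and 47.85% ± 1.05 in the low-dose livers (SD, n = 5 each), a difference that did not pass correction over the 4 library measures (exact permutation test, p = 0.0317, adjusted p = 0.127).

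After the high dose, 291 transcripts were called higher and 112 lower than after the low dose, so that 72.2% of the calls were upward. These 403 transcripts were 2.40% of the 16818 with enough counts to be tested (1.73% called higher and 0.666% called lower). A transcript was called where edgeR's quasi-likelihood test gave an adjusted p of 0.01 or less and the fold change was at least 1.82 in either direction. With no limit on fold change, at that adjusted p, 407 were higher and 308 lower (56.9% higher). The called transcripts had adjusted p values from 0.00101, with a median of 0.00464, and 4850 transcripts had an unadjusted p under 0.05. Without library 9 the count was 395, of which 301 were higher and 94 lower, and 311 of these were shared with the calls on all 10 libraries. Scaling by library size alone, instead of by TMM factors, moved the median log2 difference of all transcripts by about -0.15. Library size here is the sum of counts on the tested transcripts. Such scaling gave 213 higher and 286 lower (42.7% higher). The excess of upward calls thus holds relative to the middle of the transcriptome and not per count on the tested transcripts.

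**Figure D1:**
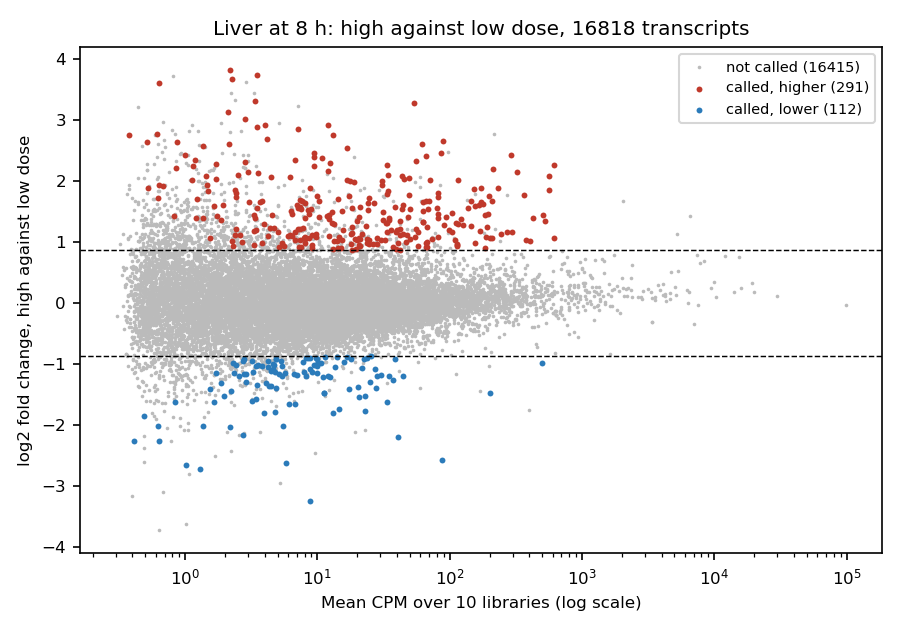
Mean level (CPM, log scale) of each of the 16818 transcripts tested against its log2 fold change, high against low dose, in liver at 8 h. Red points are the 291 transcripts called higher, blue points the 112 called lower, grey points all others, and dashed lines mark the fold limit. The upward calls reach further from 0 and are the larger share of calls among abundant transcripts.

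Among the called transcripts, the upward differences had the larger median. Transcripts called higher had a median log2 fold change of 1.42 (quartiles 1.10 and 1.86, highest 3.83), with a median standard error of 0.22, and 61 of them differed by a log2 of 2 or more. Transcripts called lower had a median of -1.17 and a lowest value of -3.25, with a median standard error of 0.20, and 13 of them differed by that much. The 5 high-dose libraries and the 5 low-dose libraries did not overlap for 277 of the 291 higher transcripts (95.2%) and for 97.3% of the lower ones. Over all transcripts tested, 11.9% had groups that did not overlap, 5.38% upward and 6.50% downward. The calls were made on these same libraries, so the separation of the called transcripts follows largely from their choice and is a description.

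The calls were spread unevenly over the range of expression. Among transcripts with a mean of 100 CPM (estimated counts scaled to a common library size) or more, 50 of 1204 were called (4.15%), and 48 of these were higher. Between 10 and 100 CPM, 129 were higher and 37 lower of 6772 tested (2.45%), and between 1 and 10 CPM 2.49% of 6877 were called, 0.989% lower and the others higher. Below 1 CPM only 0.814% of 1965 transcripts were called, at a median standard error of 0.45 against 0.13 in the most abundant class. The median level was 18.2 CPM for transcripts called higher, 6.37 CPM for those called lower and 8.84 CPM for all tested. Their median lengths were 2063, 2406.5 and 2143.5 bases.

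Transcripts scarcely detected in vehicle livers were among the upward calls, 48 of the 291 having a vehicle mean below 0.5 CPM. The same held for 0 of the 112 called lower and for 1168 of all 16818 tested. The filter on low counts looked at the dosed livers alone. Such a transcript could thus enter the test through a dosed group in which it was high, and these counts are a description. The usual organ of a transcript was read from its mean TPM in the vehicle livers, kidneys and hearts at 8 h. Of the 610 transcripts at least 10 times as abundant in liver as in kidney and heart, 19 were called (3.11%), 9 higher and 10 lower. Of the 1599 transcripts that were at most 1/10 as abundant in liver as in kidney or heart, 43 were called (2.69%), and 40 of these were higher. A further 38 of 1365 transcripts (2.78%) that reached 1 TPM in none of the 3 vehicle organs were called, 35 of them higher. The remaining 13244 had 207 higher and 96 lower (2.29%). The median log2 fold change of all tested transcripts was 0.26 in each of the 2 classes scarce in vehicle liver, 0.09 in the class most particular to liver and -0.03 in the remaining one. The same filter bears on the scarce classes, so the direction of their calls is given as a description, and the share of upward calls was not tested between classes.

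The vehicle livers, which had no part in the test, show where each difference lay. For 267 of the 291 higher transcripts (91.8%) the low-dose mean lay between the vehicle mean and the high-dose mean, compared with 58.4% of all transcripts with a higher mean after the high dose. For 82 of the 112 lower transcripts (73.2%) the low-dose mean lay between, compared with 53.8% of all with a lower mean, and for the other 30 the low-dose mean was above that of vehicle. Without library 9 the low-dose mean lay between in 272 of 301 and in 65 of 94. On mean TPM, which is relative to all targets including the intervals, it lay between in 278 of the 291 (95.5%) and in 56 of the 112 (50%). The same change of scale moved the share over all transcripts to 75.1% of those with a higher and 31.6% of those with a lower mean after the high dose. The called transcripts were chosen for a large gap between the doses, while the shares over all transcripts include gaps of any size. The sets were not matched for size, so the shares are descriptions.

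Each dose was also set against vehicle. Of the 291 higher transcripts, 138 (47.4%) were past the fold limit against vehicle after both doses and 137 (47.1%) after the high dose only, on means of log2(CPM + 0.5). Their median log2 difference from vehicle was 2.12 at the high and 0.81 at the low dose. Of the 112 lower transcripts, 19 were past the limit after both doses and 74 (66.1%) after the high dose only, with median differences of -1.33 and -0.25. Counted over those past the limit after the high dose, 50.2% of 275 higher transcripts were also past it after the low dose, near the 46.6% of all 2572 transcripts raised past it by the high dose. For the lower transcripts the share was 20.4% of 93, against 41.8% of all 1502 lowered past it. These shares are descriptions, since both comparisons use the same vehicle livers. The called transcripts also had to differ between the doses by the fold limit, which the wider sets did not. This choice by itself makes a low dose past the limit less likely at a given high-dose level.

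Library by library, the called transcripts formed 3 separate levels on the upward side. The 291 higher transcripts together took 0.411% to 0.663% of transcript counts in the vehicle livers. In the low-dose livers they took 1.27% in library 9 and 0.821%, 0.845%, 0.822% and 0.850% in libraries 12, 15, 18 and 94. In the high-dose livers they took 1.83%, 2.41%, 2.74%, 2.06% and 2.43% in libraries 8, 11, 14, 17 and 27. Library 9 was the low-dose library nearest to the high-dose group, and library 8 the high-dose library nearest to the low-dose group, and no group overlapped another. Libraries 9 and 8 were also the nearest to each other's group on the first principal component of the 10 libraries, which held 28.6% of the variance.

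The 112 lower transcripts differed less between vehicle and the low dose. They took 0.258% to 0.341% of transcript counts in vehicle livers and 0.252% to 0.296% in low-dose livers, which overlapped. Their median log2 difference from the vehicle mean, which gives each transcript equal weight, did not overlap, at -0.15 to 0.10 in vehicle livers and -0.48 to -0.20 in low-dose livers. In the high-dose livers they took 0.108%, 0.0998%, 0.0993%, 0.108% and 0.0978%, all less than in any other liver library at 8 h. The separation between the doses was used to choose both sets. The position of the vehicle and the 24 h libraries was not, except that 24 h vehicle library 1 holds the data of low-dose library 9.

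**Figure D2:**
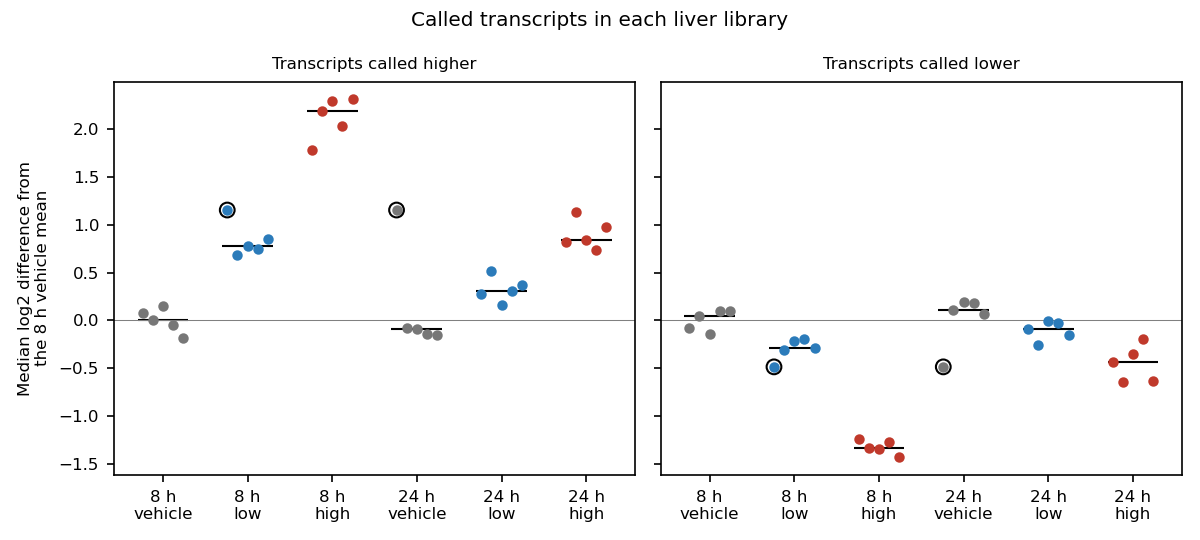
Median log2 difference from the 8 h vehicle mean, on log2(CPM + 0.5), over the 291 transcripts called higher (left) and the 112 called lower (right) at 8 h, in each of 30 liver libraries. Each point is a library, horizontal bars are group medians, and rings mark libraries 9 and 1, which hold the same data. The higher transcripts have group medians of 0.00, 0.78 and 2.18 after vehicle, low and high dose at 8 h, and the lower transcripts 0.05, -0.29 and -1.33.

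A few transcripts illustrate these patterns, the 2 with the largest differences in each direction among eligible calls. Eligible calls had groups that did not overlap, a mean of at least 2 CPM, and were called again without library 9. The values without library 9 below are thus for transcripts chosen to stay called there. CPM values are scaled by TMM over the 30 liver libraries. The transcript ENSRNOT00000082139 (1630 bases) measured 5.27, 4.96, 2.43, 5.16 and 3.32 CPM in the high-dose livers. In the low-dose livers it measured 0.114, 0.364, 0.406, 0.445 and 0.258 CPM, and in the vehicle livers 0.0499 to 0.201 CPM. It was thus near the limit of detection in all 8 h livers but those of the high dose, with 2.41 to 11 estimated counts per low-dose library against 46 to 162 per high-dose library. The log2 fold change was 3.69 ± 0.35 (SE; edgeR, adjusted p = 0.00101), and 3.51 without library 9. At 24 h its highest value in any liver was 0.567 CPM, after the high dose, and it was too low to be tested there. The change of the contrast between the times did not pass the threshold of 0.01 (edgeR dose by time interaction, adjusted p = 0.0165).

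The transcript ENSRNOT00000078113 (1858 bases) varied more between rats. It measured 0.913, 4.91, 8.07, 2.23 and 4.38 CPM in the high-dose livers and 0.685, 0.0662, 0.244, 0.162 and 0.362 CPM in the low-dose livers. The groups did not overlap, but high-dose library 8 and low-dose library 9 lay close to each other, at 13 and 12 estimated counts. The log2 fold change was 3.83 ± 0.67 (SE; edgeR, adjusted p = 0.00565), and 4.34 without library 9. The call was lost when any of 7 of the 10 libraries was left out (12, 15, 18, 94, 11, 14 or 27, edgeR adjusted p from 0.0132 to 0.0191), with no change of direction. Vehicle livers held 0.169 to 0.302 CPM, so the low-dose level did not differ detectably from vehicle (log2 fold change 0.38 ± 0.64, edgeR adjusted p = 0.689), while the high-dose level did (4.17 ± 0.62, edgeR adjusted p = 5.8e-05). At 24 h the difference between doses was 0.93 ± 0.54 on the log2 scale and did not pass the test (edgeR adjusted p = 0.218). The change of the contrast between the times did not pass the threshold of 0.01 either (edgeR interaction, adjusted p = 0.0298).

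The transcript ENSRNOT00000001876 (1086 bases) fell with each dose. Vehicle livers held 34.5 to 78.5 CPM. Low-dose livers held 14.7, 23.8, 21.97, 3.03 and 16.5 CPM, with library 18 well below the other 4, and high-dose livers held 2.46, 1.33, 1.32, 2.33 and 0.935 CPM. The 3 groups did not overlap. The log2 fold change between the doses was -3.25 ± 0.50 (SE; edgeR, adjusted p = 0.00343), and -3.28 without library 9. The low dose itself lay below vehicle (-1.77 ± 0.41, edgeR adjusted p = 0.00366), in a fit with library 9 included. The call between the doses was lost without any 1 of libraries 12, 15, 11, 14 and 27 (edgeR adjusted p from 0.0105 to 0.0131), with the direction kept. It was mainly a liver transcript, with 36.8 to 65.5 TPM in vehicle livers, 0.761 to 3.26 TPM in vehicle kidneys and at most 0.0469 TPM in vehicle hearts. The contrast at 24 h was -4.04 ± 0.63 (edgeR, adjusted p = 0.00181), and no difference between the times was detectable (edgeR interaction, adjusted p = 0.566).

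The transcript ENSRNOT00000088588 (3057 bases) was raised by the low dose and not by the high dose. High-dose livers held 2.32, 1.73, 1.16, 0.764 and 2.13 CPM and low-dose livers 14.3, 9.80, 12.5, 7.24 and 5.53 CPM, while vehicle livers held 1.71 to 5.39 CPM. The low-dose livers were above both other groups with no overlap, and the vehicle and high-dose groups overlapped. The log2 fold change between the doses was -2.62 ± 0.35 (SE; edgeR, adjusted p = 0.0019), and -2.44 without library 9. The comparisons with vehicle were fitted with library 9 included. The low dose was above vehicle by 1.67 ± 0.35 on the log2 scale (edgeR, adjusted p = 0.00172), and the high dose differed from vehicle by -0.95 ± 0.36 (edgeR, adjusted p = 0.0389), which is not past the threshold of 0.01. At 24 h the order of the doses was the reverse, with 4.18 to 8.01 CPM after the low dose and 8.00 to 22.4 CPM after the high dose (log2 fold change 1.34 ± 0.30, edgeR adjusted p = 0.00668), ranges that overlapped at their ends. The contrast differed between the times by 3.91 on the log2 scale (edgeR interaction, adjusted p = 0.00011).

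**Figure D3:**
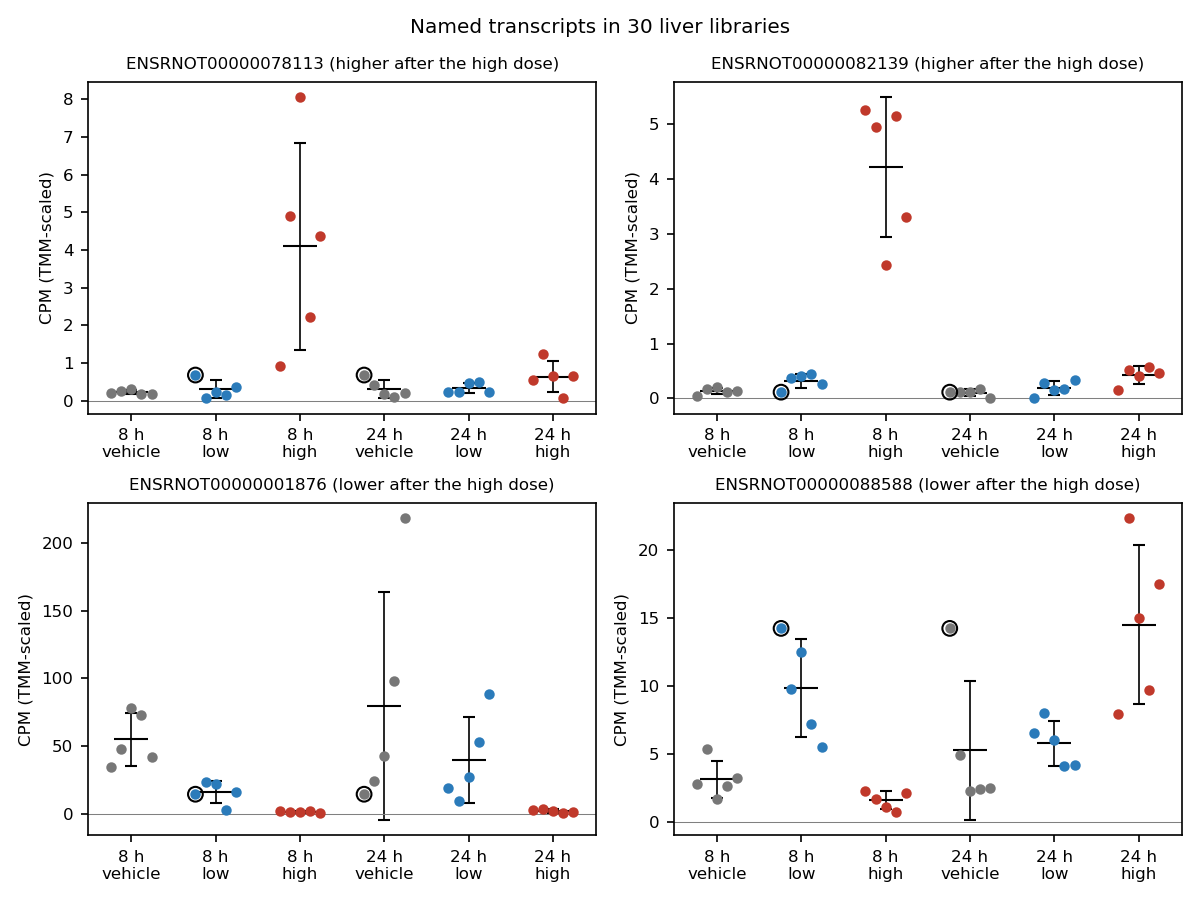
Levels (CPM, linear axes, TMM-scaled) of the 4 named transcripts in 30 liver libraries, grouped by time and dose. Points are libraries, black bars are the mean ± SD of 5 libraries, and rings mark libraries 9 and 1, which hold the same data. ENSRNOT00000078113 and ENSRNOT00000082139 stand out in the 8 h high-dose livers, ENSRNOT00000001876 is low after the high dose at both times, and ENSRNOT00000088588 is higher after the low dose at 8 h and higher after the high dose at 24 h.

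The same contrast at 24 h called more transcripts, and more of them downward. Of 17101 tested, 1128 were called (6.60%), 472 higher (2.76%) and 656 lower (3.84%) in the high-dose livers. Of the 16339 transcripts tested at both times, 97 were called in the same direction at both, which was 25.2% of the 385 called at 8 h and 8.81% of the 1101 called at 24 h. The log2 fold changes at the 2 times had a Spearman correlation of 0.300 across these transcripts, which are not independent of each other.

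Most of the 8 h differences were smaller at 24 h. Of the 291 transcripts called higher at 8 h, 274 were tested at 24 h, and 246 of these (89.8%) were again higher after the high dose, compared with 61.4% of all transcripts with a higher level at 8 h. Their median log2 fold change was 1.39 at 8 h and 0.69 at 24 h, and 78 were called again. Of the 112 transcripts called lower, 111 were tested at 24 h and 80 (72.1%) were again lower, compared with 56.4% of all. Their median was -1.17 at 8 h and -0.37 at 24 h, and 19 were called again. The transcripts were chosen for the size of their difference at 8 h, so the smaller medians at 24 h are a description and not a test.

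**Figure D4:**
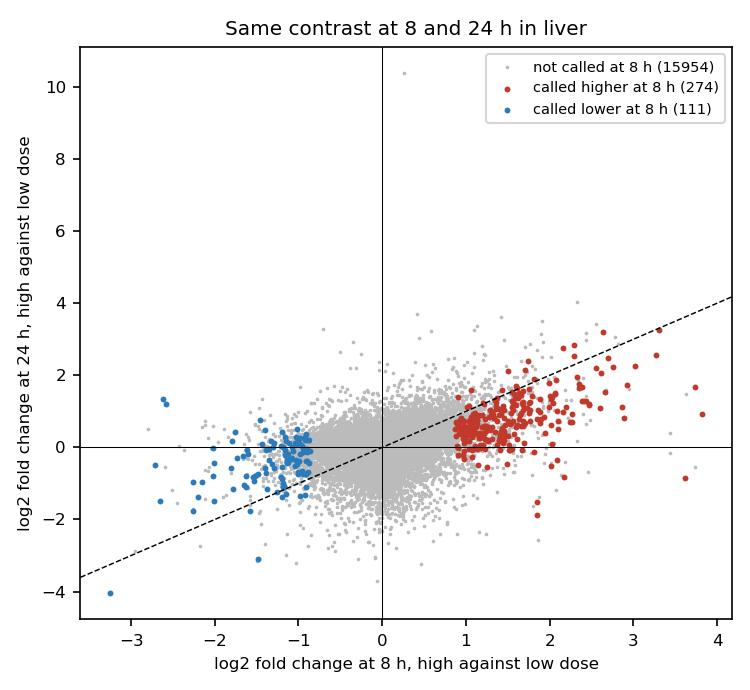
Log2 fold change of the high against the low dose in liver at 8 h (horizontal) and at 24 h (vertical) for the 16339 transcripts tested at both times. Red points were called higher and blue points lower at 8 h, grey points were not called at 8 h, and the dashed line marks equal values. Of the red points 246 of 274 lie above 0 at 24 h, and of the blue points 80 of 111 lie below it.

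The test of the difference itself, a dose by time interaction, passed for 1334 of 18103 transcripts (7.37%), and for 1053 without library 9. It passed for 48 of the 274 transcripts called higher at 8 h and for 40 of the 111 called lower, and in each of these the contrast at 24 h was less in the direction it had at 8 h, or was reversed. Since these transcripts were chosen on the same 8 h libraries, which favours this direction, both counts are descriptions. The lower transcripts split by their position at the low dose. Among the 81 whose low-dose mean lay between vehicle and high dose, 70 were again lower at 24 h, the median was -0.50, and the interaction passed for 18 (22.2%). Among the 30 whose low-dose mean lay above vehicle, 10 were again lower at 24 h, the median was 0.11, and the interaction passed for 22 (73.3%). For the higher transcripts the corresponding numbers were 37 of 251 (14.7%) with the low-dose mean between and 11 of 23 (47.8%) with it at or below vehicle. The position classes and the interaction share the 8 h low-dose libraries, so these shares are given without a test. The classes were drawn on CPM. On mean TPM the low-dose mean lay between for 56 instead of 82 of the 112 lower transcripts, and the split was not repeated there.

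The number of calls changed with the library left out, and the part of the smaller group in this was not tested. With 1 library left out, it ran from 97 (without low-dose library 12) to 512 (without high-dose library 8), and it was 121, 115 and 208 without low-dose libraries 15, 18 and 94 and 116, 190, 228 and 154 without high-dose libraries 11, 14, 17 and 27. None of the 403 transcripts changed direction in any of these 10 fits. They were chosen for a large difference in the same libraries, which favours this outcome, so it is a description. In all 10 fits 84 transcripts were called, 61 of them higher and 23 lower. Without the 3 libraries with more than 15% of counts on intervals (14, 15 and 18) the edgeR test called 0 transcripts, with a smallest adjusted p of 0.0294 and 3705 at an unadjusted p under 0.05, whereas DESeq2 on the same 7 libraries called 420, of which 317 were higher. With the interval share as a covariate and all 10 libraries, edgeR called 397.

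**Figure D5:**
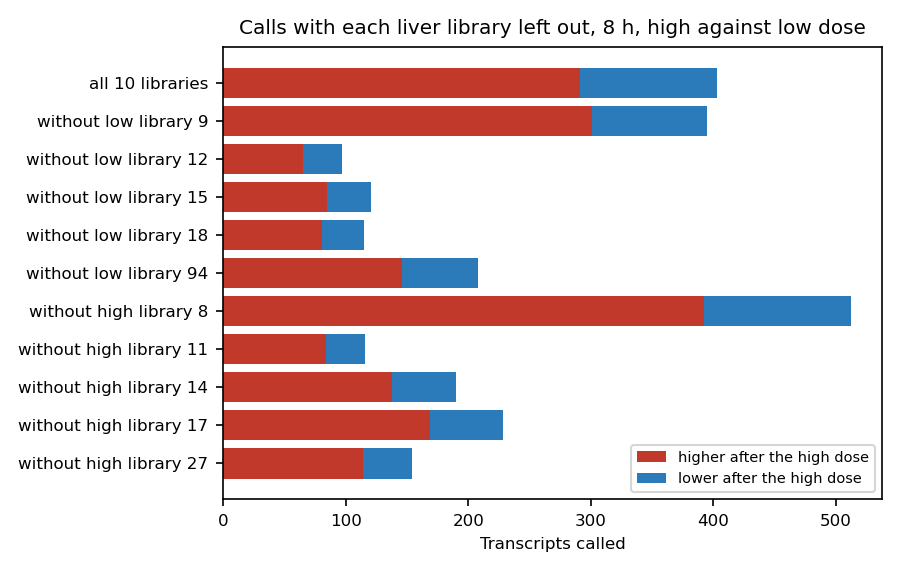
Transcripts called higher (red) and lower (blue) after the high dose in liver at 8 h, with all 10 libraries and with each library left out in turn. The bars run from 97 transcripts without low-dose library 12 to 512 without high-dose library 8, and the upward share is the larger in every bar.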

How the data were processed

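The authors pseudo-aligned paired reads to the Rnor_6.0 transcriptome with kallisto (version 0.42.2 per the submitters' processing notes) and deposited, per sample, estimated counts and TPM for 65166 targets. Of these targets, 40071 are Ensembl transcripts and 25095 are genomic intervals, which were left out here. The deposited estimated counts were rounded and tested with edgeR 4.0.16 (R 4.3.3): filterByExpr with a minimum count of 10, TMM scaling, a quasi-likelihood fit to the 10 libraries, and Benjamini-Hochberg adjustment. Calls needed an adjusted p of at most 0.01 and a natural-log fold change of 0.6 or more in size. Kallisto divides reads among similar transcripts, so the count of 1 isoform depends on its relatives.

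Alternatives used DESeq2 1.42.0, RLE scaling, no scaling, no filter, limma 3.58.1 on the deposited TPM, as log2 after adding 1 or 0.1, all 15 livers at 8 h, and single libraries left out. The 24 h contrast and the interaction were fitted in the same way, to 10 and 20 libraries. Dose against vehicle was fitted to the 15 livers at 8 h. The scripts were tested on simulated data. Levels of the whole library were compared by exact permutation of 5 against 5 (252 splits).

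Each library stands for 1 rat in the study's description. The labels give no replicate numbers, so libraries carry the number in their title. The named transcripts were the 2 largest differences in each direction among calls whose mean reached 2 CPM and whose groups did not overlap. The comparison, its rules and its lists were chosen with earlier results of these data known. The gene lists and markers drawn up for it, and a fit summed per gene, were not used because no source used here pairs the Ensembl transcripts with genes, and for the same reason no sequence is shown.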

Additional observations from a re-analysis of the deposited data

Results flagged for a closer look

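Among 36 groups of 5 values examined, 4 held a library further from the rest than Dixon's critical value of 0.71 allows, where chance alone gives about 1 in 20. The share of counts on genomic intervals was 28.9% in high-dose library 14, against 4.45% to 8.19% in the other high-dose livers, and 23.6% in vehicle library 16, against 4.08% to 8.76% in the other vehicle livers at 8 h. Vehicle library 16 also had 22776 transcripts above 0, against 21198 to 21502 in the others. Libraries 14 and 16 and low-dose library 15, at 26.4% on intervals, carry consecutive numbers in their titles, which the labels do not call a batch. The transcripts called higher took 1.27% of transcript counts in low-dose library 9, against 0.821% to 0.850% in the other low-dose livers, and this is the library whose data also stand under the 24 h vehicle label. The part of these libraries in the calls is given in the report with each of the 10 left out, and that of vehicle library 16 in the position of vehicle was not tested.

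The difference between the high and the low dose itself differed between 24 h and 8 h for 1334 transcripts by the interaction test, 473 of them with a greater and 861 with a lesser log2 fold change at 24 h.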

How the results depend on the processing

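The count of 403 transcripts at 8 h became 793 with DESeq2, which included 402 of the 403, and 115 and 94 with limma on log2(TPM + 1) and log2(TPM + 0.1). It became 715 with no limit on fold change, 843 at an adjusted p of 0.05, 0 by edgeR without the 3 libraries with over 15% of counts on intervals, and 97 to 512 with 1 library left out. It stayed within 1.5 times under RLE scaling (403), no scaling (499), no filter (313), all 15 livers (435), intervals in the fit (403), the interval covariate (397) and DESeq2 without the 3 libraries (420). Under no scaling 213 were higher and 286 lower, so the count was kept but the excess of upward calls was not. With no limit on fold change 407 were higher and 308 lower. The count of 1128 at 24 h became 2722 with no limit on fold change and 629 (without low-dose library 7) to 1455 (without high-dose library 91) with 1 library left out. The count of 1334 for the interaction became 2290 with DESeq2 and 857 (without 24 h high-dose library 26) to 1504 with 1 left out. The mean total count was 315833 higher after the high dose with all libraries, and without library 9 the difference was -1909320 (exact permutation test, p = 0.714). The causes of these shifts were not tested. ENSRNOT00000082139 and ENSRNOT00000088588 stayed past the threshold in 21 of 22 settings, ENSRNOT00000001876 in 14 and ENSRNOT00000078113 in 13 (highest edgeR, DESeq2 or limma adjusted p 0.0294, 0.0418, 0.0294 and 0.0862), and none changed direction. The named transcripts were chosen among calls with groups that did not overlap and that held without library 9, which favours both outcomes. The alternatives on the interval covariate, the 3 libraries, scaling by library size alone, and the 24 h filter and fold limit were chosen after seeing the data. No paired analysis was possible because the labels carry no replicate numbers that tie high-dose to low-dose rats. The fit summed per gene was not run. Depth limits the transcripts under 1 CPM, where few counts stand behind each value.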
